A study of Mus musculus with 8 samples.

Results

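The mouse genome names a large set of genes Zfp followed by a number. Most encode C2H2 zinc finger proteins, in which a pair of cysteines and a pair of histidines hold a zinc ion and a short helix beside them reads DNA. The genes described here were those whose symbol is Zfp and a number only, with a mean of at least 1 CPM (counts scaled to the total of their library) over all 8 libraries. The count table held 54532 genes, of which 374 had such a symbol. Zfp36 was left out because it encodes tristetraprolin, an RNA-binding protein with another kind of zinc finger. Of the other 373 genes, 287 reached 1 CPM and 86 did not. The genes were chosen by this mean level over both genotypes, which is given only as a description. The last genes inside were Zfp937 at 1.02 and Zfp69 at 1.03 CPM, and the first outside were Zfp365 at 0.930 and Zfp941 at 0.914 CPM.

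The libraries came from untreated bone marrow-derived macrophages (BMDMs), which are marrow cells grown into macrophages with macrophage colony-stimulating factor for 6 days. There were 4 libraries from wild-type (WT) mice and 4 from Gsdmd-/- mice, which lack a working copy of the gene for gasdermin D, the pore-forming protein of pyroptosis. By the methods of the study, the WT mice were female C57BL/6J of 6 to 8 weeks bought from a supplier, and the Gsdmd-/- mice had been received from another laboratory and were kept at the university. The macrophage methods give female C57BL/6J marrow donors of 6 to 8 weeks without naming a genotype. No age is stated for the Gsdmd-/- mice as such. The genotypes thus came from separate sources, and any difference between these sources cannot be told apart from the genotype. The labels do not say whether the 4 libraries of a genotype came from separate mice, so the p-values measure the spread between these libraries, which may be technical.

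Library totals ran from 14935114 to 16794810 counts. The targeted gene follows the labels, with 75.3 ± 14.1 CPM in WT against 16.2 ± 1.56 CPM in knockout libraries (SD, n = 4 each). All 9 macrophage markers were detected, and their summed level was 16148 to 24022 CPM in WT and 20012 to 23958 CPM in Gsdmd-/- libraries. The neutrophil, T and NK, B, mast, stromal and erythroid marker lists each summed to at most 6.68 CPM in any library, and Ly6g, Cd3d, Ncr1, Hbb-bs and Hba-a1 had no count. WT 2 and WT 3 stood apart from the other libraries. Their dendritic cell markers (5 of 6 detected, Siglech at 0) summed to 52.1 and 48.6 CPM, against 16.6 to 22.2 CPM in the other 6 libraries. Their endothelial markers (2 of 3 detected, Tek at 0) summed to 29.0 and 26.9 CPM against 48.3 to 80.6 CPM, and their cell cycle genes (6 of 6 detected) to 133 and 129 CPM against 64.7 to 97.5 CPM. Medians and counts without this pair are therefore given below beside those of all 8 libraries, and the part of these markers in the zinc finger results was not tested. In bulk RNA, fewer cells of a type and less RNA per cell cannot be told apart.

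Many mouse Zfp proteins carry a KRAB domain ahead of their fingers. The KRAB domain recruits Trim28, a scaffold that brings the histone methyltransferase Setdb1 and HP1 proteins to the bound DNA, and the best known targets of this silencing are transposable elements and imprinted regions. KRAB zinc finger genes arose by repeated local duplication and often lie in rows of related genes. Those without KRAB are more mixed, and include promoter and enhancer factors, chromatin proteins and RNA-binding proteins.

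The finger itself is a short repeat. To show what the family shares, 84 bases that code for 1 finger and its linker are printed for the gene with the smallest p and for a pair of chromosome 17 KRAB genes that were higher in Gsdmd-/- libraries, with the codons of the paired cysteines and histidines in capitals (GENCODE M21 transcripts, GRCm38 coordinates).
Zfp710, chr7:80081971-80082054, plus strand: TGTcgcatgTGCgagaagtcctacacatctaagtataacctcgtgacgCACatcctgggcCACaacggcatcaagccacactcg
Zfp51, chr17:21463770-21463853, plus strand: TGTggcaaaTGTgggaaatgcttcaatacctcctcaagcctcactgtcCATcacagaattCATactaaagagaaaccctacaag
Zfp229, chr17:21745565-21745648, plus strand: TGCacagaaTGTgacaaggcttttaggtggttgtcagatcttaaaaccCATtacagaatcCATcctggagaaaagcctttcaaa
The same stretch is printed for near copies, because reads from such sequence cannot be assigned to 1 gene with certainty. Here capitals mark the bases at which the pair differs.
Zfp991, chr4:147178891-147178974, plus strand: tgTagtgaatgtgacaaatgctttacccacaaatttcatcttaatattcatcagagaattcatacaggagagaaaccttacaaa
Zfp992, chr4:146466547-146466630, plus strand: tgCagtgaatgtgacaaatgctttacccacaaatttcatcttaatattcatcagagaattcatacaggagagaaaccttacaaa
Zfp969, chr2:175693794-175693877, minus strand: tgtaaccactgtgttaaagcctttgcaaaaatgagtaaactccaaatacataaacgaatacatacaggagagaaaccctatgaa
Zfp968, chr2:175382283-175382366, plus strand: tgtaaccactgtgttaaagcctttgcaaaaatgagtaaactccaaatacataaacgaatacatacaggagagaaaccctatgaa
Zfp991 and Zfp992 differed at 1 of the 84 bases, and Zfp969 and Zfp968 at 0.

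In the annotated protein products, 149 of the 287 genes matched a KRAB pattern, 135 did not, and 3 (Zfp783, Zfp939 and Zfp125) had no annotated protein. The pattern was short, so that a missing match does not show that the domain is absent. The median number of C2H2 matches was 12 in the KRAB genes and 8 in the others, and the largest number was 40. The genes lay on 20 chromosomes, 74 of them on chromosome 7, 38 on chromosome 17 and 24 on chromosome 13. Neighbours within 250 kb of the next member formed 22 rows of 3 or more genes, which held 141 genes, 95 of them with the KRAB pattern.

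Most of the genes were weakly expressed in these macrophages. The median level was 7.12 CPM, 175 of 287 genes were under 10 CPM and 13 were over 50 CPM. Per kilobase of exon the KRAB genes had a median of 0.991 CPM (0.171 to 9.56), and the genes without the pattern had a median of 2.58 CPM (0.231 to 48.9). The highest levels per kilobase were those of Zfp703 (48.9), a corepressor of the NET family, Zfp706 (35.4), a very short protein of 76 residues, Zfp91 (16.6), a ubiquitin ligase of non-canonical NF-kB signalling, Zfp106 (16.0), an RNA-binding protein needed by motor neurons, and Zfp710 (13.3). None of these 5 matched the KRAB pattern. The highest KRAB gene was Zfp445, a guardian of imprinted regions, at 9.56 CPM per kilobase.

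The question put to the family was whether loss of Gsdmd went with a different level of any of these genes in resting macrophages. With edgeR's quasi-likelihood test and Benjamini-Hochberg adjustment over the 12911 genes tested, 0 of the 287 genes reached an adjusted p under 0.05, while 45 of all genes tested did (0.349%). By direction these were 0.139% of all genes as higher and 0.209% as lower. At an unadjusted p under 0.05 there were 33 of the 287 genes (11.5%), beside 12.0% of all genes tested. This count moved when libraries were left out. It was 12 without WT 2, 17 without WT 3, 18 without Gsdmd-/- 4 and 20 without Gsdmd-/- 1 or 3. It was 25 without Gsdmd-/- 2, 32 without WT 1 and 43 without WT 4. With WT 2 and WT 3 both left out it was 18 (6.27%, beside 13.1% of all genes). A fit with fewer libraries can also detect fewer differences, and the part of single libraries was not tested. The 45 calls over all genes became 14 without WT 3, Gsdmd-/- 1, 2 or 3, 21 without WT 2 and 22 without Gsdmd-/- 4. They became 48 without WT 1, 84 without WT 4 and 161 without WT 2 and WT 3 together. Of the 33, 10 were higher in Gsdmd-/- libraries (4.74% of all genes) and 23 were lower (7.30% of all genes). The other tools placed 0 (limma voom, 0.333% of all genes), 5 (DESeq2, 2.26% of all genes) and 27 (limma voom with sample quality weights, 13.9% of all genes) of the 287 under an adjusted p of 0.05. The 5 genes of DESeq2 were Zfp51, which was higher in Gsdmd-/- libraries, and Zfp532, Zfp710, Zfp866 and Zfp969, which were lower. All 5 were also among the 27, which rest on the same counts. With the sample quality weights the 5 were at 0.58 (Zfp51), -0.69 (Zfp532), -0.47 (Zfp710), -0.52 (Zfp866) and -1.92 (Zfp969) on the log2 scale. In the edgeR fit without WT 2 and WT 3 they were at 0.55, -0.37, -0.40, -0.72 and -0.75, in the same order. The part of this pair in the 27 calls was not tested.

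**Figure D1:**
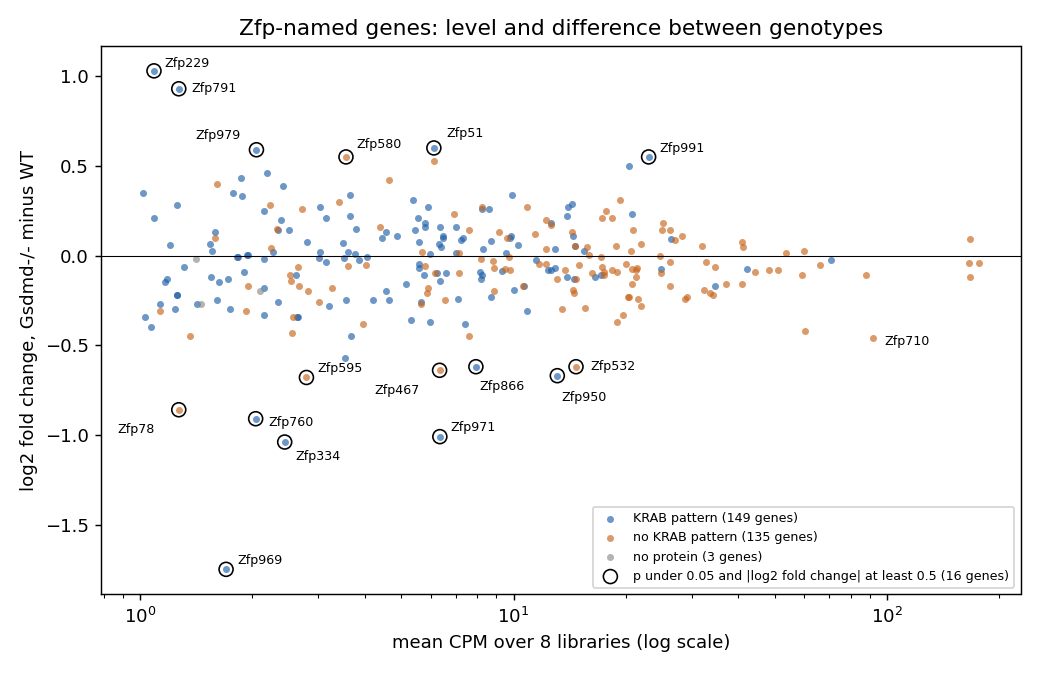
Each point is 1 of the 287 Zfp-named genes, placed by its mean CPM over the 8 libraries (x axis, log scale) and its log2 fold change, Gsdmd-/- minus WT (y axis), and coloured by KRAB pattern. The 16 circled genes pass an unadjusted p under 0.05 with a log2 fold change of 0.5 or more in size, and most other points lie within 0.5 of zero.

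Differences were small for most of the family. The log2 fold change was under 0.5 in size for 269 of 287 genes and reached 1 for 4 genes, namely Zfp229, Zfp969, Zfp334 and Zfp971. The 95% interval of the log2 fold change lay between -1 and 1 for 259 of the genes (90.2%, against 84.3% of all genes tested) and between -0.5 and 0.5 for 128 (44.6%, against 52.1%). A 2-fold difference in either direction was thus outside the interval of most genes. The median standard error was 0.173 on the log2 scale.

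The cutoff that the study used for its own display joins an unadjusted p under 0.05 to a log2 fold change of 0.5 or more in size. It took in 6 genes as higher in Gsdmd-/- libraries (1.54% of all genes tested pass in that direction) and 10 as lower (3.28% of all genes). These are 2.09% and 3.48% of the family. The higher genes were Zfp229, Zfp791, Zfp51, Zfp979, Zfp991 and Zfp580. The lower genes were Zfp969, Zfp334, Zfp971, Zfp760, Zfp78, Zfp595, Zfp950, Zfp467, Zfp532 and Zfp866. Counted by separation alone, 7 genes had every Gsdmd-/- library above every WT library (3.48% of all genes) and 12 had every Gsdmd-/- library below (4.12% of all genes). Both together were 6.62% of the family and 7.60% of all genes tested. With all 287 genes counted, the shares at the cutoff were a little above those of all genes and the share without overlap a little below. These differences were not tested, and those at the cutoff depend on the choice of members. Of the 16 genes at the cutoff, Zfp969, Zfp78, Zfp229 and Zfp791 had a mean under 1 CPM in 1 genotype and were in the family only through the genotype where they were higher, so the choice of members favours a difference in them. Among genes not at the cutoff this was also so for Zfp112, Zfp69 and Zfp937. Among the 280 genes with a mean of at least 1 CPM in both genotypes, a choice made after seeing the data, 4 passed the cutoff as higher and 8 as lower. These are smaller shares than the 1.54% and 3.28% of all genes tested, to which this choice was not applied. The single genes that stood out most are described next.

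Zfp710, on chromosome 7 (80024814 to 80094173, plus strand), was the gene nearest to the threshold. It encodes 11 C2H2 matches without a KRAB pattern and shared no 50-base stretch with another gene. It was at 110.0, 116, 107 and 94.3 CPM in the WT libraries and at 75.3, 76.2, 71.2 and 87.1 CPM in the Gsdmd-/- libraries, scaled with TMM factors as are all CPM per library below. The genotypes did not overlap, and the lowest WT library stood only a little above the highest Gsdmd-/- library. The log2 fold change was -0.46 (SE 0.0938, 95% interval -0.67 to -0.26, edgeR adjusted p = 0.0861), which is under the 0.5 of the cutoff. Over the 18 alternative fits it ranged from -0.53 to -0.40, and the adjusted p from 0.00167 (DESeq2) to 0.335. It passed 0.05 in 3 of these fits, which were DESeq2, limma voom with sample quality weights, and edgeR without WT 4. Without WT 2 and WT 3 the log2 fold change was -0.40 (edgeR adjusted p = 0.143).

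Among the genes that were higher in Gsdmd-/- libraries, 4 passed the cutoff without overlap. The share of all genes tested that does both was not counted. The KRAB pattern was matched by all 4, and by 149 of the 287 genes. Of the 4, Zfp229 and Zfp791 reached 1 CPM only through the Gsdmd-/- libraries. Zfp51, with 19 C2H2 matches, was at 5.42, 4.95, 4.52 and 4.63 CPM in WT and at 6.75, 7.51, 8.69 and 6.57 CPM in Gsdmd-/- libraries. The WT libraries lay close together and each Gsdmd-/- library was above them, with a log2 fold change of 0.60 (SE 0.146, edgeR adjusted p = 0.143). Zfp229 was counted 12, 6, 13 and 16 times in WT and 20, 23, 29 and 23 times in Gsdmd-/- libraries. At such low counts 1 library weighs heavily, and here WT 2 was the lowest. Its log2 fold change was 1.03 (SE 0.320, edgeR adjusted p = 0.249). Zfp791 was counted 21, 13, 9 and 14 times in WT and 23, 29, 21 and 34 times in Gsdmd-/- libraries, with a log2 fold change of 0.93 (SE 0.315, edgeR adjusted p = 0.289). Its WT 1 library, at 1.28 CPM, nearly met the lowest Gsdmd-/- library at 1.33 CPM. Zfp979 was counted 23, 28, 28 and 28 times in WT and 29, 34, 50 and 45 times in Gsdmd-/- libraries, and Gsdmd-/- 3 and 4 carried most of the difference of 0.59 on the log2 scale (SE 0.254, edgeR adjusted p = 0.390). It shared 26.7% of its 50-base windows with other genes, above all with Zfp600, so that its count is uncertain. Of the 8 fits that leave out 1 library, Zfp51 and Zfp229 passed the cutoff in 8, Zfp791 in 7 and Zfp979 in 2.

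Another 4 genes were lower in Gsdmd-/- libraries past the cutoff and without overlap, again with no share of all genes counted. Zfp866, a KRAB gene on chromosome 8, was at 11.7, 8.92, 8.92 and 8.82 CPM in WT and at 5.39, 6.86, 5.26 and 7.50 CPM in Gsdmd-/- libraries. WT 1 stood above the other WT libraries, which agreed closely, and the log2 fold change was -0.62 (SE 0.165, edgeR adjusted p = 0.180). Zfp532, a partner of Zmynd8 in a chromatin complex, was at 15.6, 22.5, 19.0 and 14.2 CPM in WT and at 10.8, 13.3, 9.58 and 12.7 CPM in Gsdmd-/- libraries. WT 2 and WT 3 were its highest libraries and WT 4 lay near Gsdmd-/- 2, with a log2 fold change of -0.62 (SE 0.166, edgeR adjusted p = 0.183). Zfp595 was at 2.37, 4.22, 3.85 and 3.35 CPM in WT and at 2.31, 2.13, 2.16 and 1.99 CPM in Gsdmd-/- libraries. Its Gsdmd-/- libraries were tightly grouped and WT 1 sat just above them, with a log2 fold change of -0.68 (SE 0.215, edgeR adjusted p = 0.262). Zfp969, which reached 1 CPM only through the WT libraries, had the largest difference of the family, at 22, 84, 45 and 21 counts in WT and 9, 16, 11 and 14 counts in Gsdmd-/- libraries. WT 2 and WT 3 were far above every other library, and the log2 fold change was -1.75 (SE 0.474, edgeR adjusted p = 0.189). Of the 8 fits that leave out 1 library, Zfp866, Zfp595 and Zfp969 passed the cutoff in 8 and Zfp532 in 7.

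**Figure D2:**
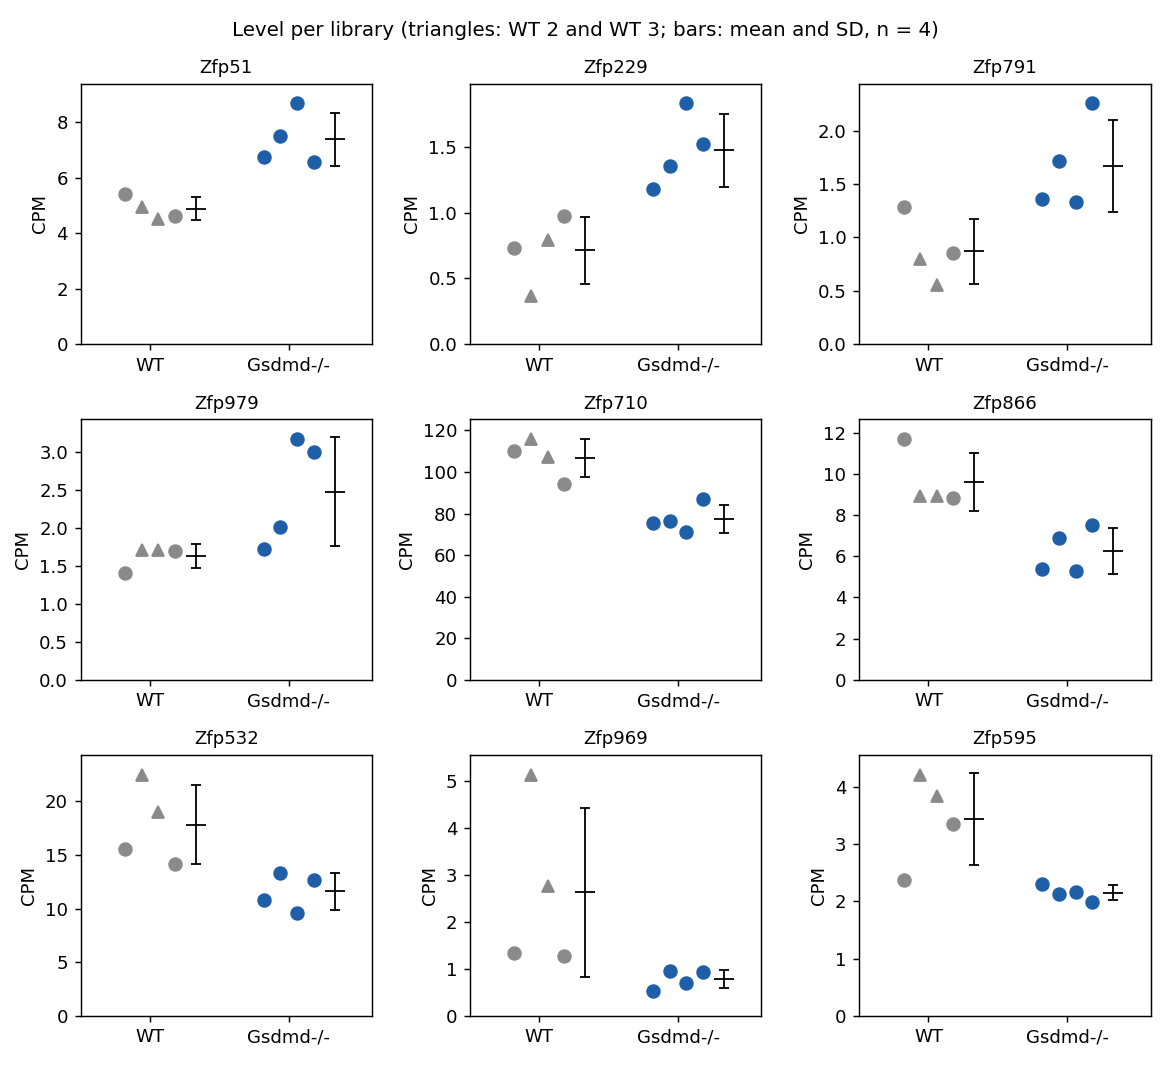
CPM (y axis, from 0) of 9 genes in the 4 WT (grey) and 4 Gsdmd-/- (blue) libraries, with WT 2 and WT 3 as triangles and the mean and SD (n = 4) as bars. Zfp51, Zfp229, Zfp791 and Zfp979 are higher in all Gsdmd-/- libraries and the other 5 genes are lower, and in Zfp532, Zfp969 and Zfp595 the triangles are the highest points.

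Zfp969 also shows the limit that near copies set. Every 50-base window of its transcripts occurred in another gene, most often in Zfp968, whose finger printed above is the same over all 84 bases. Zfp968 itself had 0, 4, 2 and 0 counts in WT and 1, 2, 1 and 0 in Gsdmd-/- libraries. Zfp971 and Zfp970, which also lie on chromosome 2, shared 51.1% and 49.5% of their windows, again mostly with Zfp968. Zfp971 was at 4.69, 14.1, 10.8 and 4.44 CPM in WT and at 4.44, 5.86, 2.22 and 4.31 CPM in Gsdmd-/- libraries. Here WT 1 and WT 4 lay within the range of the Gsdmd-/- libraries and WT 2 and WT 3 did not. Its log2 fold change was -1.01 (SE 0.405, edgeR adjusted p = 0.363), and that of Zfp970 was -0.57 (SE 0.362, edgeR adjusted p = 0.581). How reads that fit several of these genes were assigned is not given in the sources used here. The 3 values are thus uncertain and may not be independent of each other.

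The same holds for Zfp991 and Zfp992 on chromosome 4. Zfp991 shared 82.2% and Zfp992 43.0% of its windows with other genes, each mostly with the other. Zfp991 was at 22.6, 15.3, 14.4 and 22.5 CPM in WT and at 21.0, 26.0, 32.3 and 30.2 CPM in Gsdmd-/- libraries. Zfp992 was at 23.4, 16.0, 13.3 and 14.8 CPM in WT and at 18.6, 22.5, 26.1 and 28.1 CPM in Gsdmd-/- libraries. WT 1 reached into the Gsdmd-/- range in both genes, and WT 4 also did in Zfp991. The log2 fold changes were 0.55 (SE 0.186, edgeR adjusted p = 0.289) and 0.50 (SE 0.190, edgeR adjusted p = 0.342), the second falling just short of the cutoff. Across the family 45 genes shared more than 10% of their windows, 36 of them KRAB genes, and 107 shared none. The median log2 fold change of the 45 was -0.0170, and -0.0267 without WT 2 and WT 3.

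WT 2 and WT 3 were the highest pair of libraries in 9 of the 10 genes that passed the cutoff as lower. A gene lower in Gsdmd-/- libraries tends to have WT libraries at the top, so the nearest comparison is with all genes that passed this cutoff as lower, where the same pair was highest in 263 of 424 (62%). The exception among the 10 was Zfp866. Zfp334 was at 2.01, 4.22, 5.44 and 1.52 CPM in WT and at 1.30, 1.66, 1.59 and 1.86 CPM in Gsdmd-/- libraries, so that WT 4 lay among the Gsdmd-/- libraries. Zfp950 was at 10.9, 20.5, 21.9 and 11.1 CPM in WT and at 11.7, 9.76, 8.94 and 10.1 CPM in Gsdmd-/- libraries, and Gsdmd-/- 1 was above both WT 1 and WT 4. In Zfp760 and Zfp467 both WT 1 and WT 4 reached into the Gsdmd-/- range, and in Zfp78 WT 4 did. Zfp467, known for favouring fat over bone formation in marrow stroma, was at 5.84, 9.65, 10.1 and 5.42 CPM in WT and at 2.96, 5.32, 6.34 and 5.24 CPM in Gsdmd-/- libraries.

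With WT 2 and WT 3 left out, 1 gene passed the cutoff as lower (Zfp866, log2 fold change -0.72, with 3.15% of all genes passing) and 8 as higher (3.05% of all genes). All 16 genes kept the sign of their difference. Zfp950 and Zfp971 moved to -0.12 each, Zfp334 to -0.15, Zfp467 to -0.19 and Zfp760 to -0.22, while Zfp78 was at -0.36, Zfp532 at -0.37, Zfp595 at -0.41 and Zfp969 at -0.75. Among the higher genes Zfp51 (0.55) and Zfp229 (0.78) still passed. Zfp580 moved from 0.55 to 0.33 and Zfp991 from 0.55 to 0.28. Zfp992 and Zfp970, near copies that were not at the cutoff, moved to 0.31 and -0.28. The other 6 that passed were Zfp128 (1.05), Zfp937 (1.22), Zfp449 (0.86), Zfp651 (0.77), Zfp503 (0.56) and Zfp81 (0.53), which were not past the cutoff with all libraries. Of these, Zfp937 reached 1 CPM only through the Gsdmd-/- libraries, and its WT 1 library held 4 counts against 12 to 23 in the other 7. Its log2 fold change was 0.35 with all libraries and 0.0347 without WT 1. Zfp503, the close relative of Zfp703, was the one gene with an edgeR adjusted p under 0.05 in this fit (0.0469, beside 1.21% of all genes tested). It was counted 210, 420, 365 and 217 times in WT and 318, 332, 314 and 275 times in Gsdmd-/- libraries. The Gsdmd-/- libraries thus lay between WT 1 and WT 4 on one side and WT 2 and WT 3 on the other, and the log2 fold change over all 8 libraries was 0.0518 (SE 0.213, edgeR adjusted p = 0.947).

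**Figure D3:**
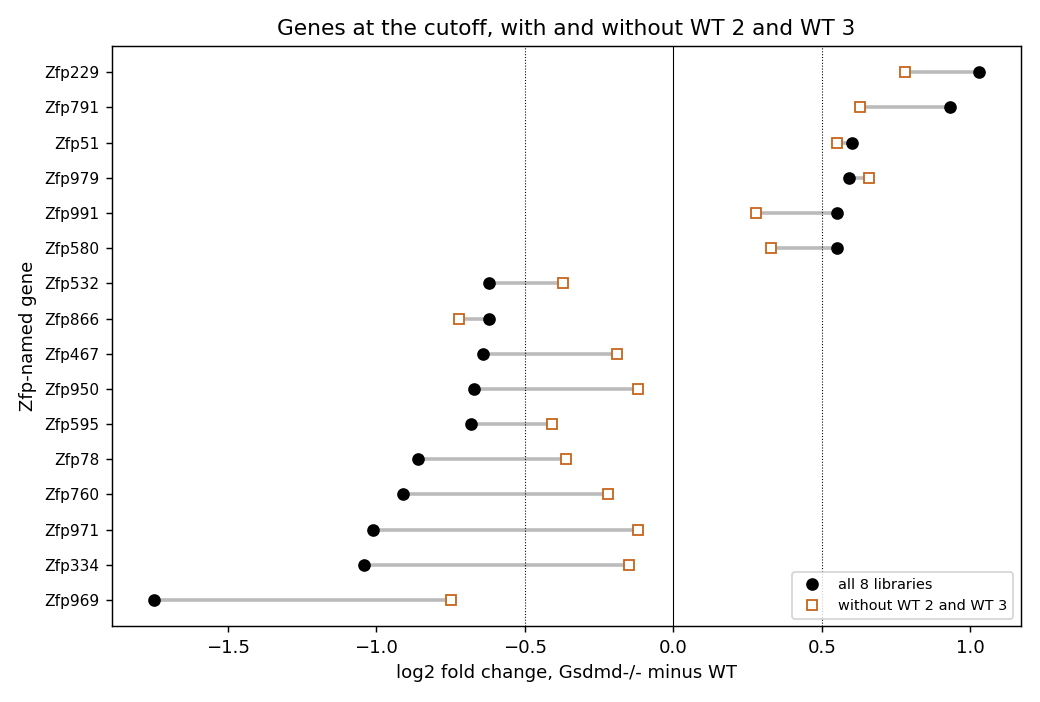
Log2 fold change (x axis, Gsdmd-/- minus WT) of the 16 genes at the cutoff (y axis) with all 8 libraries (filled circles) and without WT 2 and WT 3 (open squares), with dotted lines at -0.5 and 0.5. Of the 10 lower genes, Zfp866 and Zfp969 stay beyond -0.5, and among the higher genes Zfp229, Zfp791, Zfp51 and Zfp979 stay beyond 0.5.

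The median log2 fold change of the 287 genes was -0.0482, with 120 genes above 0 and 167 below (58.2% below, against 51.5% of all genes tested, whose median was -0.00685). Without WT 2 and WT 3 the lean turned, with a median of 0.0227, 156 above 0 and 131 below (45.6% below, against 51.5% of all genes in that fit, whose median was -0.00730). The summed level was 4136 ± 242 CPM in WT and 3986 ± 169 CPM in Gsdmd-/- libraries (SD, n = 4 each). By library it ran from 3804 CPM (WT 4) to 4371 CPM (WT 2) in WT and from 3795 to 4165 CPM in Gsdmd-/-, so that the genotypes overlapped.

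The KRAB genes centred on zero, with a median of -0.00744 and 74 above and 75 below. The genes without the pattern had a median of -0.0709, with 46 above and 89 below. Without WT 2 and WT 3 these medians were 0.0256 and 0.0220, and 74 of the genes without the pattern lay above 0 and 61 below. For the genes without the pattern, the median deviation of each library from the gene's own mean was 0.029, 0.114, 0.078 and -0.095 on the log2 scale in WT and -0.036, 0.027, -0.087 and -0.011 in Gsdmd-/- libraries. WT 2 and WT 3 were the highest and WT 4 the lowest, and the genotypes overlapped. At the cutoff, 5 KRAB genes (3.36%) and 1 other gene (0.741%) were higher, beside 1.54% of all genes tested. Another 6 KRAB genes (4.03%) and 4 others (2.96%) were lower, beside 3.28%. The KRAB genes Zfp229, Zfp791 and Zfp969, and also Zfp78, were in the family only through the genotype where they were higher. The choice of members thus favours a difference in these shares. The difference between the classes was not tested.

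**Figure D4:**
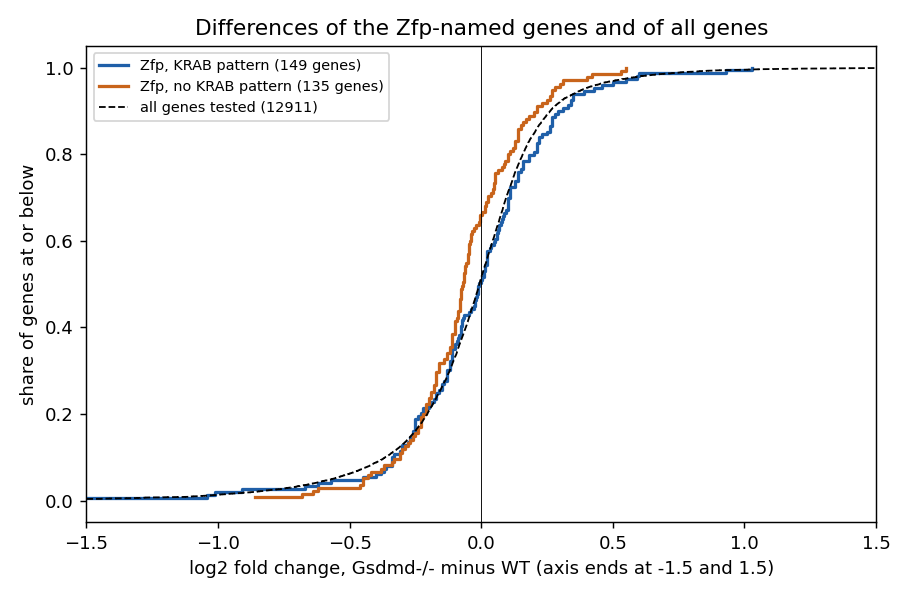
Share of genes (y axis) at or below each log2 fold change (x axis, Gsdmd-/- minus WT, shown from -1.5 to 1.5) for the 149 KRAB genes, the 135 genes without the pattern and all 12911 genes tested. The KRAB curve crosses 0 near the curve of all genes, and the curve of the other genes lies to the left of it in the middle, with a median of -0.0709 (0.0220 without WT 2 and WT 3, which is not drawn). Zfp969, at -1.75, lies beyond the axis.

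Neighbouring genes were then compared along the chromosomes. The largest row held 18 KRAB genes on chromosome 17 (21383748 to 22456689) and contained genes on either side, Zfp229 at 1.03 and Zfp51 at 0.60, and Zfp760 at -0.91, around a median of 0.0231. The other 15 genes of this row lay between -0.19 (Zfp948) and 0.25 (Zfp947). With WT 2 and WT 3 left out the median of the 18 was -5.296e-04, with 9 above 0 and 9 below. The row of 16 genes on chromosome 13 (67038596 to 67827002), which holds Zfp595, had a median of -0.00893, with 8 above 0 and 8 below (0.0634, 9 and 7 without WT 2 and WT 3). A row of 10 genes on chromosome 7 (24081924 to 24515682) had 9 below 0 and a median of -0.31 with all libraries. Without WT 2 and WT 3 the same 10 genes had 5 above 0 and 5 below, and a median of -0.0106. In that row Zfp235 was at 4.14, 4.77, 3.97 and 4.14 CPM in WT and at 2.49, 3.13, 3.36 and 3.52 CPM in Gsdmd-/- libraries. These did not overlap, and the log2 fold change was -0.45 (SE 0.172, edgeR adjusted p = 0.349). Zfp111 in the same row was at -0.38 (SE 0.164, edgeR adjusted p = 0.395), and without WT 2 and WT 3 at -0.20. These genes and rows were picked out after their values were seen.

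**Figure D5:**
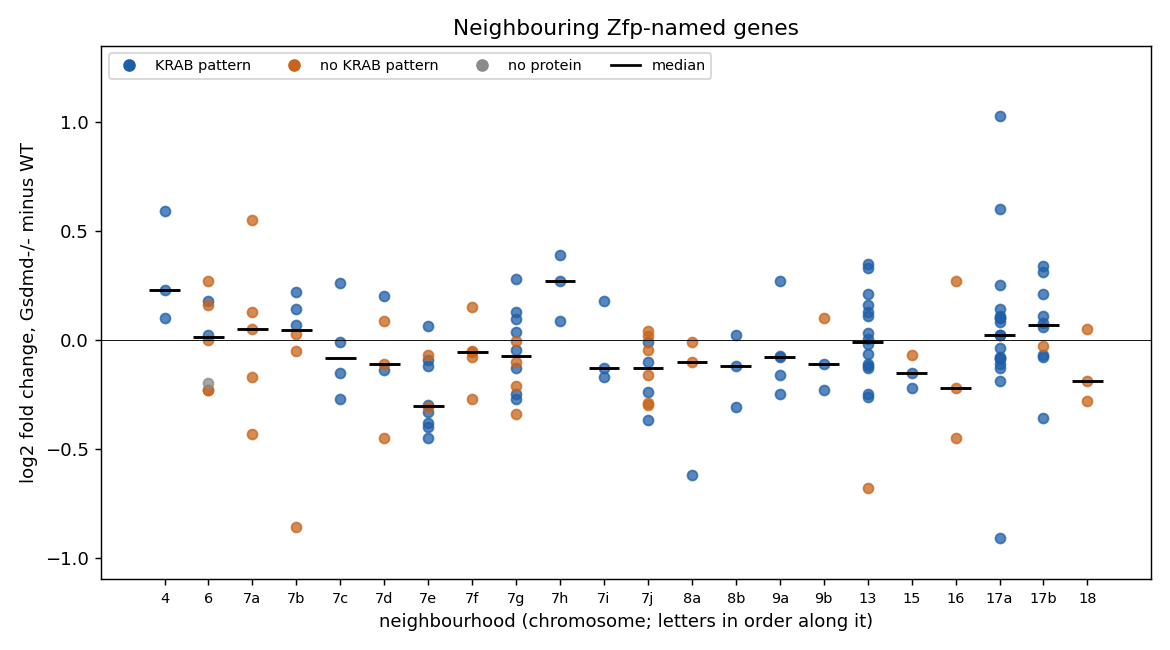
Log2 fold change (y axis, Gsdmd-/- minus WT) of the 141 genes in the 22 rows of 3 or more neighbours (x axis, named by chromosome, with letters in order along it), coloured by KRAB pattern, with the median as a black bar. The row with 18 genes on chromosome 17 (17a) spans -0.91 to 1.03, and the row of 10 on chromosome 7 (7e) has a median of -0.31, which was -0.0106 without WT 2 and WT 3.

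Genes of known role were taken from lists, which were chosen with earlier results of these data known. Of 9 listed for imprinting and the silencing of proviruses, 6 were among the 287, and their median log2 fold change was -4.646e-04, with 0 at an adjusted and 1 (Zfp992) at an unadjusted edgeR p under 0.05, beside 0.349% and 12.0% of all genes tested. They were Zfp992 (above), Zfp809, which silences murine leukaemia proviruses, at -0.23 (SE 0.178), Zfp568, a repressor of a placental Igf2 transcript, at 0.0939 (SE 0.134), Zfp445 at -0.0231 (SE 0.129), Zfp932 at -0.10 (SE 0.182) and Zfp961 at 0.0222 (SE 0.154). Leaving out WT 2 and WT 3 turned the sign of Zfp445 (0.0542), Zfp932 (0.17) and Zfp961 (-0.0326), gave a median of 0.0888 and left 0 at an unadjusted p under 0.05. Zfp445 was at 77.7, 78.6, 72.1 and 57.2 CPM in WT and at 67.8, 81.4, 58.5 and 73.4 CPM in Gsdmd-/- libraries, with full overlap.

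Of 8 genes for RNA, ribosome and spindle functions 7 were measured, with a median of -0.11, 6 of them below 0, and 0 at an adjusted and 1 (Zfp598) at an unadjusted edgeR p under 0.05. That is 14.3% at the unadjusted p, beside 12.0% of all genes tested (0.349% at the adjusted p). Zfp598, the ubiquitin ligase that marks collided ribosomes, was at 34.3, 30.9, 28.1 and 31.2 CPM in WT and at 27.9, 26.5, 25.6 and 25.5 CPM in Gsdmd-/- libraries. The genotypes came close without overlap, and the log2 fold change was -0.24 (SE 0.0897, edgeR adjusted p = 0.339). Zfp207, a spindle and kinetochore protein, was at -0.11 (SE 0.0764), Zfp106 at -0.12 (SE 0.0956), Zfp346, which binds double-stranded RNA, at -0.20, and Zfp326, a splicing factor of the elongating polymerase, at 0.18. With WT 2 and WT 3 left out, Zfp346 was at -0.11 and Zfp326 at 0.0678, the median was -0.0886 with 5 below 0, and Zfp598 alone stayed at an unadjusted edgeR p under 0.05.

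Of 11 genes tied to blood and immune cells 9 were measured, with a median of -0.19 and 0 at an adjusted edgeR p under 0.05. At an unadjusted p under 0.05 there were 3 (Zfp710, Zfp263 and Zfp467), all lower, beside 7.30% of all genes tested as lower. Leaving out WT 2 and WT 3 left 1 of these (Zfp710) and a median of -0.17. Zfp263 was at 36.4, 39.6, 37.2 and 34.5 CPM in WT and at 32.4, 33.7, 29.8 and 30.5 CPM in Gsdmd-/- libraries, a small difference without overlap (log2 fold change -0.22, SE 0.0840, edgeR adjusted p = 0.333). Zfp91 had 162 ± 14.6 CPM in WT against 172 ± 11.5 CPM in Gsdmd-/- libraries (SD, n = 4 each), a difference within the spread. Zfp384, a fusion partner in leukaemia, was at -0.11.

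Of 14 broad promoter and chromatin factors 13 were measured, with a median of -0.0617 and 0 at an adjusted edgeR p under 0.05. At an unadjusted p under 0.05 there were 2 (15.4%, beside 12.0% of all genes tested), Zfp532 (above) and Zfp407 (-0.33, SE 0.132, edgeR adjusted p = 0.358). Zfp462 was at 6.27, 5.62, 4.89 and 3.23 CPM in WT and at 8.53, 9.17, 5.07 and 6.10 CPM in Gsdmd-/- libraries, with overlap (log2 fold change 0.53, SE 0.246, edgeR adjusted p = 0.432). Zfp703 was at 168 ± 9.63 and 164 ± 4.76 CPM (SD, n = 4 each), with the smallest standard error of the family (0.0746) and a 95% interval of -0.21 to 0.13 on the log2 scale. With WT 2 and WT 3 left out the median of the 13 was -0.00949, and the 2 at an unadjusted edgeR p under 0.05 were Zfp532 and Zfp143.

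The proteins that KRAB zinc fingers work through were examined beside them. The list held 36 symbols, and 34 partners were tested. Their median log2 fold change was -0.0283, with 0 at an adjusted p under 0.05 (beside 0.349% of all genes tested) and 0 at the cutoff (beside 1.54% higher and 3.28% lower). The 2 with an unadjusted p under 0.05 (5.88%, beside 12.0%) were Mta1, of the NuRD complex (-0.26, SE 0.0880, edgeR adjusted p = 0.295), and Setdb1 (-0.22, SE 0.0937, edgeR adjusted p = 0.392). The level of Setdb1 was 56.7 ± 3.46 CPM in WT against 48.8 ± 4.81 CPM in Gsdmd-/- libraries, and that of Trim28 was 105 ± 10.4 against 96.6 ± 6.18 CPM (SD, n = 4 each). The log2 fold change of Trim28 was -0.12 (95% interval -0.33 to 0.0826). Leaving out WT 2 and WT 3 gave a median of -0.0489 for the 34, and the 2 at an unadjusted edgeR p under 0.05 were then Trim28 (-0.24) and Dnmt3a, while Mta1 was at -0.24 and Setdb1 at -0.18.

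Zinc finger genes of other names gave a yardstick. The 35 Zbtb genes tested had a median of -0.0126. At an unadjusted edgeR p under 0.05 there were 7 of the 35 (beside 12.0% of all genes tested), 6 of them lower (17.1%, beside 7.30%), and 3 passed the cutoff as lower (8.57%, beside 3.28%) and 0 as higher. The difference from the Zfp genes was not tested. At an adjusted edgeR p under 0.05 there was 1 (beside 0.349% of all genes tested), Zbtb40, which was lower in Gsdmd-/- libraries (213, 280, 262 and 213 counts against 144, 154, 128 and 107, log2 fold change -0.84, SE 0.137, edgeR adjusted p = 0.0361). With WT 2 and WT 3 left out, Zbtb40 was at -0.66 (edgeR adjusted p = 0.0604), so that 0 of the 35 passed (beside 1.21% of all genes). In that fit 5 had an unadjusted edgeR p under 0.05 (14.3%, beside 13.1% of all genes). At the cutoff 1 was higher and 2 were lower (beside 3.05% and 3.15% of all genes), and the median was -0.0174. The 17 Zscan and Zkscan genes had a median of -0.17, with 14 below 0 (82.4%, beside 51.5% of all genes tested), and 0 at an adjusted and 1 at an unadjusted edgeR p under 0.05 (5.88%, beside 12.0%). The difference from all genes was not tested, and with WT 2 and WT 3 left out the median was -0.10 and 10 were below 0 (58.8%). Zfp36, left out of the family above, was higher in Gsdmd-/- libraries, at 195 ± 11.7 CPM against 99.2 ± 7.71 CPM in WT (SD, n = 4 each). Its fold change was 0.97 on the log2 scale (edgeR adjusted p = 8.198e-04), and 0.88 without WT 2 and WT 3 (edgeR adjusted p = 0.00496). Of the 86 genes under 1 CPM, 16 had enough counts to be tested and 22 had no count in any library. Among the 16, 0 had an adjusted and 1 (Zfp469) an unadjusted edgeR p under 0.05 (6.25%, beside 12.0% of all genes tested). Zfp469, named after its values were seen, was counted 5, 6, 11 and 5 times in WT and 24, 21, 17 and 13 times in Gsdmd-/- libraries (log2 fold change 1.47, SE 0.348, edgeR adjusted p = 0.132). Leaving out WT 2 and WT 3, it was at 1.90 (edgeR adjusted p = 0.0844).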

How the data were processed

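Total RNA of BMDMs was sequenced as 8 TruSeq libraries. The authors deposited 1 table of raw counts per gene, aligned to mm10 per the labels. The aligner, counter, annotation, strand setting and treatment of reads that fit several genes are not given in the sources used here, so counts of near copies and of overlapping genes are uncertain.

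Deposited counts were tested with edgeR 4.0.16 in R 4.3.3 (TMM factors, filterByExpr, quasi-likelihood F-test, two-sided, genotype only, all 8 libraries), with Benjamini-Hochberg adjustment over the 12911 genes that passed the filter. All 287 Zfp genes passed. The study's methods text names limma, while its plot of changed genes credits edgeR and gives the cutoff used here. limma 3.58.1 (voom) and DESeq2 1.42.0 were alternatives. Other normalizations, filters, membership levels and left-out libraries were also tried, and the fit was tested on simulated data. Intervals are 95% intervals of the fit. The libraries of 1 genotype differed beyond counting noise, so each counted as 1 sample. The numbers shared by WT and Gsdmd-/- libraries come from the sample names and were not taken to pair them.

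KRAB and C2H2 patterns were searched in translated GENCODE M21 transcripts (GRCm38, the same assembly as mm10), in place of the RefSeq proteins first planned. Shared sequence was the share of a gene's 50-base transcript windows found in another gene. Level per kilobase used the exon length.

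The members, lists and tests were chosen with earlier results of these data known. The text names members at the cutoff without overlap between genotypes, the 5 highest per kilobase, those nearest to 1 CPM and up to 5 per role list. Other genes at the cutoff, near copies, genes of single rows, a sixth gene of the imprinting list (Zfp961) and genes called without WT 2 and WT 3 were named after their values were seen.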

Additional observations from a re-analysis of the deposited data

Results flagged for a closer look

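In 3 of 76 groups of 4 libraries examined for the 37 named genes and their edge, 1 library stood apart from the other libraries of its genotype by more than Dixon's critical value, which chance alone gives in about 1 in 20 groups. Zfp866 was at 11.7 CPM in WT 1 and at 8.82 to 8.92 CPM in the other WT libraries. Zfp979 was at 1.40 CPM in WT 1 and at 1.70 to 1.71 CPM in the other WT libraries. Zfp69 was at 1.65 CPM in WT 2 and at 0.974 to 1.03 CPM in the other WT libraries.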

How the results depend on the processing

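The count of 0 genes at an adjusted p under 0.05 held with limma voom, the other normalizations and filters, and both other membership levels. It became 11 higher and 16 lower with limma voom and sample quality weights (also 11 and 16 at the cutoff), 1 higher and 4 lower with DESeq2, and 1 higher without WT 2 and WT 3. Without that pair 1 gene was lower at the cutoff and the family's median was 0.0227. A fold cutoff of 1 left 1 higher and 3 lower. From a mean of 5 CPM, 2 higher and 5 lower genes passed the cutoff and 2 were higher without overlap. Leaving out 1 library at a time gave 3 to 7 higher (3 without WT 2 or Gsdmd-/- 4) and 3 to 16 lower genes at the cutoff (3 without WT 2, 4 without WT 3, 5 without Gsdmd-/- 1, 16 without WT 4) and 0 to 1 lower gene at an adjusted p under 0.05 (Zfp710 without WT 4). The cause of these shifts was not tested. With the replicate block, 0 genes had an adjusted p under 0.05 and 6 higher and 11 lower genes passed the cutoff. Over all genes the block left 25 calls in place of 45. Same-numbered WT and Gsdmd-/- libraries deviated together with correlations of 0.0268, 0.182, 0.0412 and -0.201, and only WT 2 correlated best with its own number (WT 1, WT 3 and WT 4 did not). The genes of the naming rule and the other genes at the cutoff, 37 in all, were compared under 18 alternative fits. Zfp229, Zfp791, Zfp969 and Zfp937 had 17, as they were not tested from 10 counts in every library. The sign changed for 4 that no fit called. Without WT 2 and WT 3 it did for Zfp706 (0.0426), Zfp445 (0.0542), Zfp932 (0.17) and Zfp219 (0.0864), and also for Zfp961 (-0.0326), which is described outside these 37, and with 1 library left out for Zfp706 (-0.12 to 0.00874), Zfp445 (-0.11 to 0.0573) and Zfp932 (-0.22 to 0.0284). Low counts limit the genes near 1 CPM, where 3 counts are 0.179 to 0.201 CPM.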
